A study of Homo sapiens with 12 samples.

Results

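CC and CX3C chemokines were followed in human proximal tubular cells (HPTCs) that had received interleukin-1β (IL-1β), empagliflozin (Empa) or no ligand. The members were 9 genes, CCL2, CCL7, CCL8, CCL5, CCL3, CCL4, CCL20, CCL28 and CX3CL1, and their probes were all non-control probes that carry a member's gene name on the array. A probe was found for 8 of the 9 members, with 1 probe each, among the 33483 probes that had a value on all 12 arrays. No probe of the array is named CCL4. Of the 15717 genes that entered the test across genes, 4 were members, namely CCL2, CCL20, CCL28 and CX3CL1. The probes of CCL7, CCL8, CCL5 and CCL3 were not well above background on both arrays of any group and were described only.

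Chemokines are small secreted proteins that bind to G protein-coupled receptors on leukocytes and direct these cells along a gradient. CC chemokines carry a pair of adjacent cysteines near their N terminus, whereas in CX3CL1, the only CX3C chemokine, other residues lie between them. In an inflamed kidney, tubular epithelial cells are a source of CCL2 and other chemokines, and IL-1β acts on many chemokine genes through its receptor and the transcription factor NF-κB.

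RNA came from HK-2 cells, proximal tubular cells of human kidney immortalized with papillomavirus genes, and from RPTEC/TERT1 cells, which come from the same part of the nephron and owe their long life to telomerase. All cells were starved of serum and supplements for 24 h, the medium was changed, and control cells then received no ligand while the others received IL-1β at 10 ng/mL or Empa, an inhibitor of the glucose transporter SGLT2, at 500 nM for 24 h. No array carries cells that received IL-1β and Empa together. Each of the 6 groups of line and treatment has 2 arrays, biological duplicates per the methods, and each of the 4 slides holds 1 array of each treatment. By the titles, slide A carries the first and slide B the second replicate of HK-2, and slide C the first and slide D the second replicate of RPTEC/TERT1. The 75th percentile of the signal lay between 298 and 765 signal units on an array, and the scanner software marked from 52.7% to 63.1% of an array's probes as well above background.

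The titles give the line, while the source entry of every one of the 12 arrays reads HK-2. Across 15324 probes the control arrays of slides A and D correlated with Pearson's r = 0.984, and those of slides B and C with r = 0.973. Within a label, the control arrays correlated with r = 0.8796 for HK-2 and r = 0.875 for RPTEC/TERT1. Values are therefore given for each slide, and a line name refers to the label of the arrays.

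Promoters were looked at because several members differed between IL-1β and control arrays in the same direction. The RefSeq promoter table (GRCh38.p14) holds 5 of the members, CCL20, CCL28, CCL3, CCL7 and CCL8. The 250 bases before the transcription start are printed for the 4 of these genes whose probe was well above background on at least 1 array, at chr2:227813592-227813841 on the plus strand for CCL20, chr5:43412392-43412641 on the minus strand for CCL28, chr17:36090144-36090393 on the minus strand for CCL3 and chr17:34319185-34319434 on the plus strand for CCL8. Capitals mark matches on either strand to GGG and CC with any 5 bases between them, the general form of NF-κB sites, and to TATAAA on the sense strand, the TATA box.
CCL20: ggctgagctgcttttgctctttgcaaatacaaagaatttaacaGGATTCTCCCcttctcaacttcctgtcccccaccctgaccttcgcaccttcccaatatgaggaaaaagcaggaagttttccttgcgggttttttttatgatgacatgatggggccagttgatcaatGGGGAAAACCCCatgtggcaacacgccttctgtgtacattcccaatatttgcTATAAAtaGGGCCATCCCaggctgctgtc
CCL28: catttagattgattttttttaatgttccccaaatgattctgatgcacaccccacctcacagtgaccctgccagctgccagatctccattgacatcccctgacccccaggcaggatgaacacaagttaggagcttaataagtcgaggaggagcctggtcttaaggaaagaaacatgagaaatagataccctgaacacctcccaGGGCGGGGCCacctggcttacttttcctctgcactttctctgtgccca
CCL3: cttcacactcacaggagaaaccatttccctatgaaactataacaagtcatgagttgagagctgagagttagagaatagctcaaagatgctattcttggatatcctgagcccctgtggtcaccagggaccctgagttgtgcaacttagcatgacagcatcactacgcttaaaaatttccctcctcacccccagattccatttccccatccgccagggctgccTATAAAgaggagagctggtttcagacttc
CCL8: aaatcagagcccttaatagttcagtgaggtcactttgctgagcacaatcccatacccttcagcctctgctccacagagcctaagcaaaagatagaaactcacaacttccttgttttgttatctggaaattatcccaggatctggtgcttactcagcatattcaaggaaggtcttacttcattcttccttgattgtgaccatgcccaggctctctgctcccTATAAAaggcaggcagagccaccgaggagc

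The NF-κB form was found at 5 positions in the CCL20 window, of which 3 overlap each other between bases 81 and 70 before the start, and at 1 position in the CCL28 window. The stricter κB consensus was matched once among the 5 windows, in CCL20 from base 79 to base 70 before the start. TATAAA lay from base 29 to base 24 before the start in CCL20 and CCL3 and from base 30 to base 25 in CCL7 and CCL8. The AP-1 motif TGACTCA was in none of the 5 windows. Among 35116 promoters of the same length, 54.4% hold the NF-κB form on either strand, 9.96% the κB consensus, 6.803% TATAAA on the sense strand and 4.20% TGACTCA on either strand. A match is a description of these letters only.

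Among the 8 members with a probe, 4 had a higher level with IL-1β than in the control of the same slide on all 4 slides (CCL2, CCL20, CCL28 and CCL3), against 10.1% of the 33483 probes that did so by any amount. CCL5, CCL3 and CCL8 were well above background only on the IL-1β arrays of slides A and D, and CCL7 on no array. Folds below come from signals scaled to the 75th percentile of each array, so they can differ from the quotient of the signals as read. Where the brighter array was saturated, the fold is a lower bound. Where the dimmer array was not well above background, the fold is a lower bound too, taken against the higher of the probe's own level and the lowest level that was well above background on that array. That lowest level is a convention and no strict limit of detection. On the control array of slide A it was 6.34 signal units, while CCL28 at 8.41 was not well above background.

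**Figure D1:**
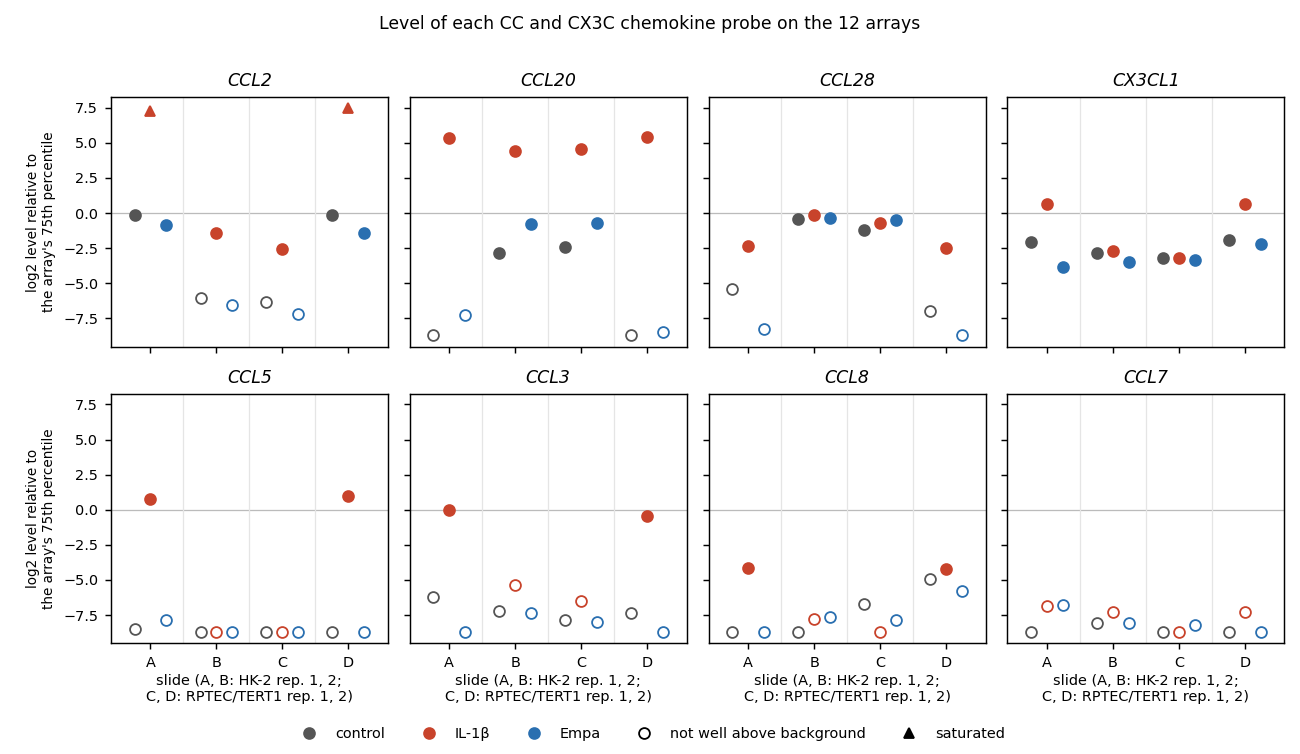
Level of the probe of each member on the 12 arrays, as log2 of the signal relative to the array's 75th percentile (vertical axis), by slide (horizontal axis) and treatment (color). Open circles are arrays on which the probe was not well above background and triangles are saturated arrays. The IL-1β arrays lie above the control arrays of their slide for CCL2 and CCL20 on all 4 slides, and CCL5 is at or near the floor on all arrays but 2.

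CCL2 (MCP-1), the main attractant of monocytes through the receptor CCR2, is measured by a probe at chr17:32584050-32584109 (hg19, plus strand) that is spotted 10 times on each array. On slide A its mean signal was 333 signal units in control, 66384 with IL-1β and 176 with Empa. Slide D gave 271, 67879 and 178 in the same order. On both of these slides the IL-1β array was saturated. The control and Empa arrays of the other slides were not well above background, with 5.40 signal units in control and 7.84 with Empa on slide B and 4.99 and 2.21 on slide C. IL-1β gave 282 signal units on slide B and 70.6 on slide C, both well above background and unsaturated. With IL-1β, CCL2 was thus at least 164-fold higher on slide A, at least 192-fold on slide D, at least 18.9-fold on slide B and at least 11.8-fold on slide C. The levels of the control arrays lay far apart within each label, by 5.94 on the log2 scale between the arrays labelled HK-2 and by 6.198 between those labelled RPTEC/TERT1, and the control level of slide A was above the IL-1β level of slide B. RNA of whole cultures was measured, so more expressing cells and more RNA per cell cannot be told apart.

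With Empa, CCL2 was 1.68-fold lower than control on slide A and 2.39-fold lower on slide D, the slides on which both arrays were measured. The 75th percentile on slide D was 298 signal units in control and 467 with Empa, so signals as read differ less than scaled levels there. The spots of the probe lay between 306 and 394 signal units in control and between 160 and 197 with Empa on slide A. On slide D they lay between 237 and 311 in control and between 154 and 202 with Empa. The spots did not overlap between control and Empa on these slides. Spots of 1 array share its RNA and hybridization and are no replicates of a treatment. Neither array was well above background on the other 2 slides, where the spots overlapped, and on slide B the signal as read was higher with Empa while the scaled level was lower.

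**Figure D2:**
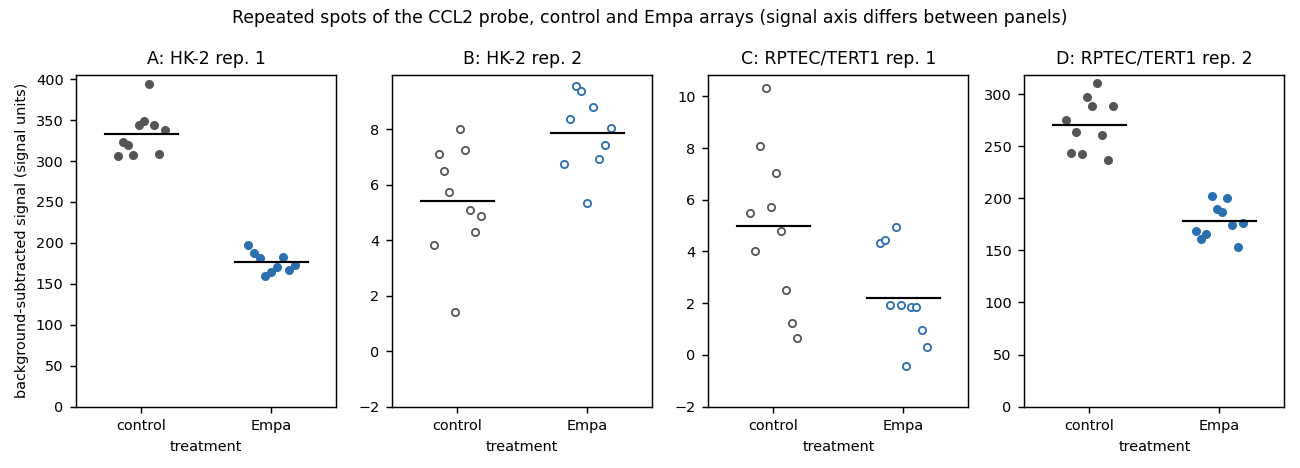
Signals of the repeated spots of the CCL2 probe on the control and Empa arrays of each slide, in background-subtracted signal units, with outlier spots left out. Lines are means over spots, filled points are spots of arrays well above background, and the vertical axis differs between panels. On slides A and D all Empa spots lie below all control spots.

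CCL7 (MCP-3) and CCL8 (MCP-2) are further ligands of monocyte receptors and are encoded beside CCL2 on chromosome 17. CCL7, probed at chr17:32598800-32598859 on the plus strand, was not well above background on any array and read between -1.71 and 5.02 signal units, so no difference was measured for it. CCL8, probed at chr17:32648102-32648161 on the plus strand, was well above background on 2 arrays, with 24.6 signal units on the IL-1β array of slide A and 20.9 on that of slide D. The control and Empa arrays of these slides read -2.64 and -3.08 on slide A and 9.71 and 8.39 on slide D. CCL8 was at least 3.19-fold higher with IL-1β than in control on slide A and at least 1.65-fold higher on slide D. The arrays of slides B and C read between -1.73 and 3.87 signal units for CCL8, none of them well above background.

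CCL5 (RANTES), CCL3 (MIP-1α) and CCL4 (MIP-1β) attract T cells and monocytes. CCL5, probed at chr17:34199332-34199391 on the minus strand, read 734 signal units on the IL-1β array of slide A and 771 on that of slide D. Its other 10 arrays, including the IL-1β arrays of slide B (-2.42) and slide C (0.282), read at most 1.41 signal units and were not well above background. The IL-1β level was at least 95.2-fold above control on slide A and at least 98.7-fold on slide D. CCL5 thus split the IL-1β arrays of each label into 1 with a clear signal and 1 without.

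CCL3, probed at chr17:34415605-34415664 on the minus strand, read 424 signal units with IL-1β on slide A and 282 on slide D. The control arrays of these slides read 4.80 and 1.85, so CCL3 was at least 55.0-fold and at least 36.0-fold higher with IL-1β. With IL-1β it read 18.4 signal units on slide B and 4.64 on slide C, neither well above background. The 8 control and Empa arrays read between -2.02 and 4.80, with no array well above background. CCL4 itself has no probe of its name, while the copy gene CCL4L2 has 4 probes and CCL3L3, a copy of CCL3, has 2. Transcripts of such copies can bind to each other's probes. The longest run of bases that the CCL3 probe shares with a CCL3L3 probe is 5 of 60. That compares probes only, and binding of CCL3L3 transcripts to the CCL3 probe was not tested. The CCL4L2 probes well above background with IL-1β on slide A read 210 and 213 signal units, and on slide D they read 228 and 177. The first of these probes was also well above background in control of slide A (71.3) and with Empa on slide B (13.0). These values came from probes of CCL4L2 and were not taken as values of CCL4.

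CCL8, CCL5 and CCL3 were the 3 of 8 members that were well above background on the IL-1β arrays of slides A and D and on no other array, a pattern seen in 106 of the 33483 probes (0.317%). This pattern was chosen after the values of the members were seen.

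CCL20 (MIP-3α) attracts lymphocytes and dendritic cells through CCR6. Its probe spans chr2:228681100-228681836 (hg19, plus strand), which at 737 bases is longer than the probe itself and so crosses an intron. With IL-1β the probe read 18021 signal units on slide A, 16218 on slide B, 9946 on slide C and 16535 on slide D. In control it read 50.01 on slide B and 77.2 on slide C, and it was not well above background on slide A (-1.05) and slide D (-0.227). All IL-1β arrays lay above all control and Empa arrays, without saturation. IL-1β gave a level 152-fold above control on slide B and 123-fold on slide C, and at least 2336-fold on slide A and at least 2116-fold on slide D. The control arrays on which CCL20 was measured are those on which CCL2 was not.

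With Empa, CCL20 read 412 signal units on slide B and 198 on slide C, and it was not well above background on slide A (2.10) and slide D (1.35). On the 2 slides with measured control arrays it was higher with Empa than in control, 4.08-fold on slide B and 3.21-fold on slide C. The software gave an error of 5.38 signal units for the control spot and 41.3 for the Empa spot on slide B, and of 8.09 and 19.9 on slide C, which covers the reading of a spot within 1 array and not the spread between cultures. The signals here are as read, and the 75th percentile of the Empa array of slide B was higher than that of its control. CCL20 was above its control with Empa where CCL2, on the other slides, was below it.

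CCL28, a chemokine of mucosal epithelia that binds CCR10, is measured at chr5:43381925-43381984 on the minus strand. In control it read 267 signal units on slide B and 175 on slide C, against 8.41 on slide A and 2.32 on slide D, both not well above background. IL-1β gave 86.9 on slide A, 696 on slide B, 255 on slide C and 69.1 on slide D, all well above background. The level with IL-1β was at least 8.49-fold above control on slide A and at least 8.84-fold on slide D. On the slides with measured control arrays it was 1.22-fold higher on slide B and 1.40-fold on slide C. With Empa, CCL28 read 554 signal units on slide B and 224 on slide C, which after scaling is 1.03-fold and 1.600-fold above control. The Empa arrays of slide A (1.07) and slide D (-0.601) were not well above background. On slide B the 75th percentile was 358 signal units in control, 765 with IL-1β and 723 with Empa, so signals as read differ more than scaled levels there.

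CX3CL1 (fractalkine) is made as a membrane protein that holds cells with the receptor CX3CR1 and is shed by ADAM10 and ADAM17. Its probe at chr16:57418025-57418084 on the plus strand was the only one among the members that was well above background on all 12 arrays. On slide A it read 85.9 signal units in control, 677 with IL-1β and 22.7 with Empa, and on slide D it read 79.2, 616 and 99.8. Slide B gave 49.4, 116 and 65.4, and slide C gave 43.7, 45.5 and 31.6. CX3CL1 was 6.47-fold higher with IL-1β than in control on slide A, 5.95-fold on slide D and 1.10-fold on slide B. On slide C the log2 difference was -0.0030, and it was slightly above 0 after quantile normalization (0.12) and in the table of the authors (0.06). With Empa, the scaled level was lower than in control on all 4 slides, 3.36-fold on slide A, 1.53-fold on slide B, 1.24-fold on slide D and 1.10-fold on slide C. Without scaling, CX3CL1 read higher with Empa than in control on slides B and D.

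The members were then counted on each slide at a difference of at least 2-fold, with the brighter array well above background. With IL-1β, 7 of 8 members were higher on slide A, against 5.83% of all probes, and CCL7 was the exception. On slide D the count was 6 of 8 (CCL2, CCL5, CCL3, CCL20, CCL28 and CX3CL1), against 6.65%. On slides B and C it was 2 of 8 each, CCL2 and CCL20, against 3.94% and 2.35% of all probes. As scaled, CCL2 and CCL20 therefore passed this size on every slide, and the other members on 2 slides or fewer. For CCL2 the size depended on the processing where its control array was not well above background. On slide C its log2 difference was 3.76 as scaled, 1.01 in the table of the authors and 0.98 after normexp and quantile normalization, the last below 2-fold. On slide B it was 4.61, 2.11 and 1.64 in the same order. The median difference of all probes was 0 on the log2 scale on 3 slides and -0.12 on slide B.

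**Figure D3:**
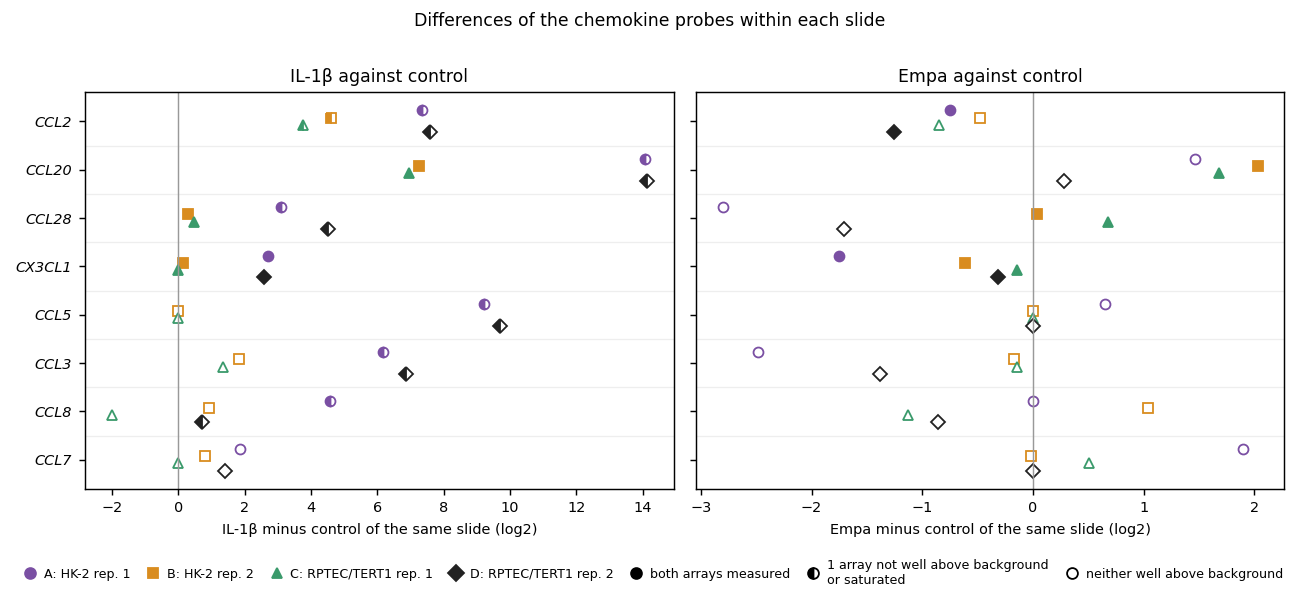
Difference on the log2 scale between the IL-1β array (left) or the Empa array (right) and the control array of the same slide (horizontal axes, which differ in range) for each member (vertical axis). Filled marks are slides on which both arrays were measured, partly filled marks those with 1 array not well above background or saturated, and open marks those with neither array well above background, whose place depends on the floor. The marks of CCL20 lie to the right of 0 in both panels, and those of CCL2 to the right with IL-1β and to the left with Empa.

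For Empa, members lower than control by at least 2-fold numbered 1 of 8 on slide A (CX3CL1), against 8.71% of all probes, and 1 of 8 on slide D (CCL2), against 1.11%. Both stayed past this size after quantile normalization, but not in every processing. On the log2 scale, CCL2 on slide D was at -1.25 as scaled and -0.61 as read. After normexp and quantile normalization it was at -0.95, and in the table of the authors at -0.98. CX3CL1 on slide A was at -1.75 as scaled and at -0.77 and -0.20 in the last 2 alternatives. None was lower by this size on slide B, against 2.07%, or on slide C, against 2.52%. Members higher by at least 2-fold numbered 1 of 8 on slide B and 1 of 8 on slide C, CCL20 on both slides, against 2.97% and 1.56% of all probes. None was higher by this size on slide A, against 4.05%, or on slide D, against 2.05%. By any amount, 3 of 8 members were lower with Empa on all 4 slides (CCL2, CCL3 and CX3CL1), against 10.3% of the probes, and 1 of 8 was higher on all 4 (CCL20), against 8.16%. These counts by any amount include arrays that were not well above background, and for CCL3 no slide had a measured array in this comparison.

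Over the 4 slides, the mean log2 difference with IL-1β was 10.60 ± 4.04 (SD, n = 4 slides) for CCL20 and 5.83 ± 1.93 for CCL2. It was 2.09 ± 2.06 for CCL28, higher on 4 of 4 slides, and 1.35 ± 1.49 for CX3CL1, higher on 3 of 4. An exact sign-flip permutation test (two-sided) gave p = 0.125 for CCL2, CCL20 and CCL28, which is the smallest p that 4 slides allow, and p = 0.25 for CX3CL1. These means include control values at or near the floor for CCL2, CCL20 and CCL28 and saturated IL-1β values for CCL2, so their size depends on the processing and was not ranked among genes. After normexp and quantile normalization the means were 7.06 for CCL20, 4.20 for CCL2, 0.74 for CCL28 and 1.09 for CX3CL1. In the table of the authors they were 6.69, 4.32, 0.53 and 0.87. Without slide D the mean of CCL28 was 1.28. The median of all 15717 genes tested was -0.11.

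Across all genes, limma with 6 groups and no block called 8 genes for the mean of both lines, 5 of them higher with IL-1β (0.0318% of the genes tested), and none was a member. CCL20 had an adjusted p of 0.203 and CCL2 of 0.797 (limma, Benjamini-Hochberg). With the replicate number of each line, which is also the slide, as a block, 318 genes were higher (2.02%), among them CCL2 (adjusted p = 0.0114) and CCL20 (adjusted p = 0.0172), while CX3CL1 (0.270) and CCL28 (0.317) did not pass. With 1 effect per treatment over the 4 slides, which does not use the line labels, 4.52% of the genes were higher, again with CCL2 (adjusted p = 0.00146) and CCL20 (0.00275) and without CX3CL1 (0.187) and CCL28 (0.218). Leaving out each slide in turn from this last fit kept both genes past the threshold of 0.05, with adjusted p between 0.00445 and 0.0179 for CCL2 and between 0.00759 and 0.0265 for CCL20. CCL2, CCL20 and CCL28 passed the filter on dim probes only through their IL-1β groups. Their tests with IL-1β therefore used the same arrays that admitted them, and the filter favors such genes. Without this filter, 25622 genes were tested. The replicate block in limma then left CCL2 at an adjusted p of 0.0773 and CCL20 at 0.0957, both short of the threshold. The fit with 1 effect per treatment kept both past it (0.0128 and 0.0201).

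In the arrays of a single label, 0.0% of the genes were called higher with IL-1β without a block, in HK-2 as in RPTEC/TERT1 (0 genes each, with 591 and 449 genes at an unadjusted p below 0.05 in either direction). The replicate block called 0.121% of the genes higher for HK-2 and 0.102% for RPTEC/TERT1, with no member among them. With this block the adjusted p of CCL2 was 0.0784 for HK-2 and 0.102 for RPTEC/TERT1 (limma), while CCL20 had 0.115 and 0.139. The difference of the IL-1β effect between the lines was called for 0.0% of the genes in either fit. That contrast cannot show a difference between the pairs of like slides, A with D and B with C, for either treatment. Each label holds a slide of either pair, so the contrast averages over the pairs. For CCL2 the line difference, RPTEC/TERT1 minus HK-2, was -0.31 ± 1.53 (SE) on the log2 scale with the block, and for CCL20 it was -0.13 ± 3.25.

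With Empa, the mean log2 difference over the 4 slides was 1.36 ± 0.76 (SD, n = 4) for CCL20, -0.83 ± 0.32 for CCL2, -0.70 ± 0.72 for CX3CL1 and -0.949 ± 1.596 for CCL28. The exact sign-flip permutation test gave p = 0.125 for CCL20, CCL2 and CX3CL1 and p = 0.5 for CCL28. The median of the 15717 genes was -0.02. These means too include slides on which neither array of CCL20, CCL2 or CCL28 was well above background. The sign of CCL28 turned with the processing, to 0.09 after normexp and quantile normalization and 0.14 in the table of the authors, with -0.06 at a floor of 5 signal units. In the same order of the first 2 alternatives, CX3CL1 was at -0.30 and -0.18, lower on 4 of 4 slides in each, and CCL20 at 0.68 and 0.73. Without slide A the mean was -0.36 for CX3CL1 and -0.33 for CCL28, and without slide C that of CCL28 was -1.49. Limma without a block called 0.0% of the genes for Empa in either direction, in each label, in the mean and in the difference between the lines, and the replicate block also called 0.0% in all of these. For the mean of both lines, 205 genes were at an unadjusted p below 0.05 without a block and 1444 with it. With 1 effect per treatment over the 4 slides 1 gene was called (0.00636%), which was no member. In that fit the adjusted p was 0.611 for CCL2, 0.635 for CX3CL1, 0.692 for CCL20 and 0.696 for CCL28. No Empa difference of a member passed the threshold of limma, including that of CCL2, which was lower on both slides where it was measured.

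By group, the order of the mean levels showed how far the spread within a label reached. For CCL20 the groups with IL-1β were highest, at 4.99 ± 0.60 (SD, n = 2 arrays) in RPTEC/TERT1 and 4.89 ± 0.68 in HK-2 on the log2 scale, which do not differ beyond their spread. The next group was 8.91 lower, a step above the spread of both neighbors, and the Empa and control groups that followed did not differ beyond theirs. For CCL2 the IL-1β groups were highest too, at 2.90 ± 6.14 in HK-2 and 2.44 ± 7.09 in RPTEC/TERT1, but no step between neighboring groups exceeded the spread. This spread is that of the 2 arrays of a label and leaves out the slide, within which CCL2 was higher with IL-1β on 4 of 4 slides. CX3CL1 ran from -1.05 ± 2.37 with IL-1β in HK-2 down to -3.64 ± 0.24 with Empa in HK-2. Its only step above the spread of both groups was the last, of 0.85. That step lay between the Empa groups of RPTEC/TERT1 (-2.79 ± 0.79) and HK-2, so it separates labels and not treatments. For CCL3 the step from control in HK-2 to control in RPTEC/TERT1 also exceeded the SD of both groups. Its arrays there were not well above background.

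Among the other CC ligands of the family, 18 of 20 listed genes had a probe, 11 were well above background on at least 1 array and 3 on all 12. Limma tested 7 of them, and none was called with IL-1β or Empa in any of the 3 fits. Their median log2 difference was -0.17 with IL-1β and -0.21 with Empa, beside -0.11 and -0.02 for all genes tested. Counting all 26 ligand genes with a probe, 14 were well above background on the IL-1β array of slide A and 13 on that of slide D, against 9 and 6 in the controls of these slides. These counts include the 8 members with a probe. Of these members, 7 were well above background with IL-1β and 2 in control, on slide A as on slide D. Most of the rise on these slides thus lay in the members. On slide B the numbers were 10 with IL-1β, 7 in control and 11 with Empa, and on slide C they were 8, 7 and 6. Of the genes of the cluster that holds CCL2, CCL7 and CCL8 on chromosome 17, CCL11, CCL13 and CCL1 were not well above background on any array.

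**Figure D4:**
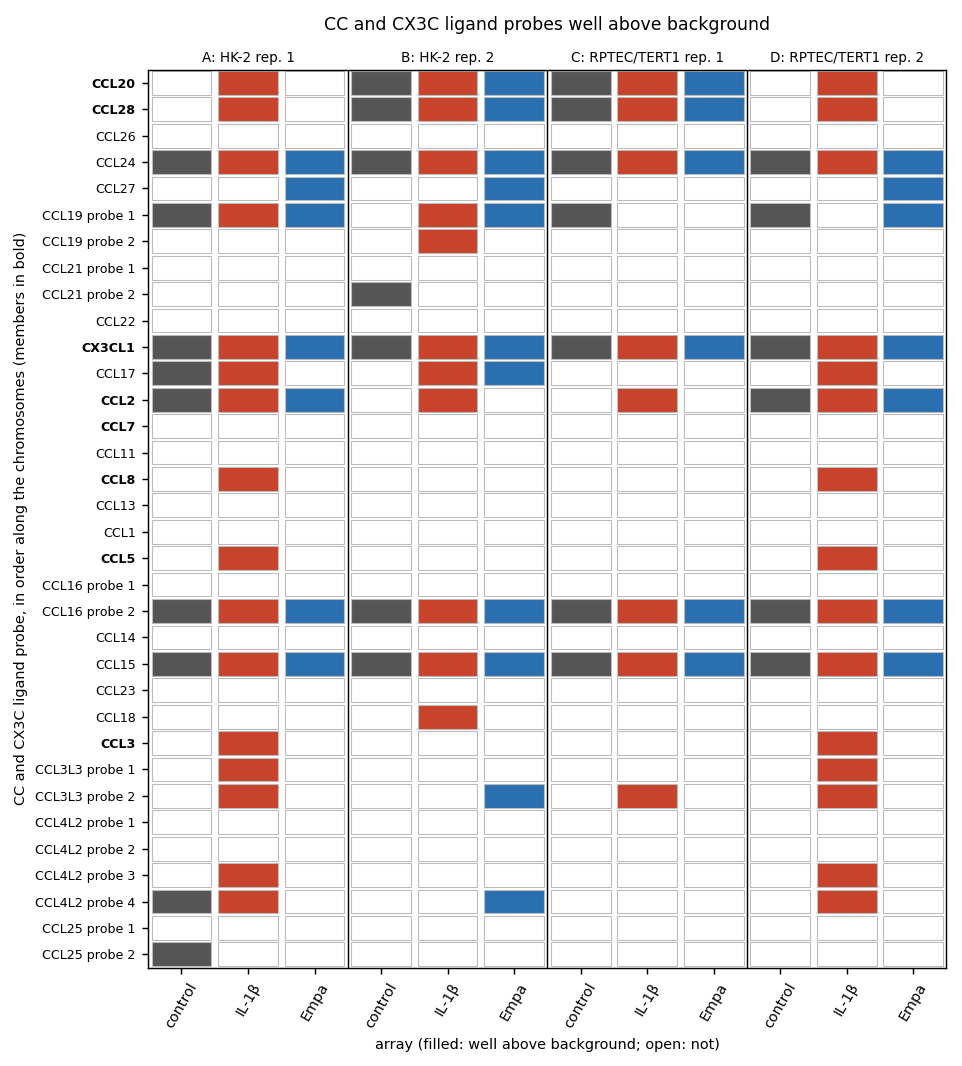
Probes of CC and CX3C ligands (rows, in order along the chromosomes, members in bold) that were well above background on each of the 12 arrays (columns, grouped by slide). Filled cells are colored by treatment. CCL8, CCL5 and CCL3 are filled only for the IL-1β arrays of slides A and D, and CX3CL1 is filled on all arrays.

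Of 18 listed names of chemokine receptors, 15 had a probe and 6 were well above background on at least 1 array. CCR2, the receptor of CCL2, and CX3CR1, the receptor of CX3CL1, were not well above background on any array. CCR6, the receptor of CCL20, and CCR10, the receptor of CCL28, were well above background on all 12 arrays, without a call for either treatment. CCR7 was named after its values were seen, since it was well above background on the same IL-1β arrays as CCL5, with 276 signal units on slide A and 153 on slide D. ADAM10, ADAM17 and DPP4, proteases that shed or trim chemokines, gave signals well above background on every array without a call for any of the 3.

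Of the 20 listed genes of the IL-1 receptor and NF-κB path, which include its inhibitors and regulators of mRNA, 19 had a probe and all 19 were tested. Without a block 1 was called higher with IL-1β, with the replicate block 5 and with 1 effect per treatment over the 4 slides 8, against 0.0318%, 2.02% and 4.52% of all genes in the same fits, none lower and none with Empa. The median was 0.40 with IL-1β, beside -0.11 for all genes. By the size of the change, the first 3 with the replicate block were ZC3H12A, an RNase that limits cytokine mRNAs (log2 difference 4.50 ± 1.05, SD over 4 slides, adjusted p = 0.00518), NFKBIA, the NF-κB inhibitor (3.69 ± 1.31, adjusted p = 0.0116), and IRAK2, a kinase of the IL-1 receptor complex (3.53 ± 1.87, adjusted p = 0.0264). All 3 were higher on 4 of 4 slides, as CCL2 and CCL20 were.

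Of 12 proximal tubule markers, 9 were well above background on at least 1 array and 5 on all 12, among them LRP2, the uptake receptor megalin, and SLC5A2, which encodes SGLT2. HNF4A and SLC22A6 were among those well above background on no array. ANPEP and the epithelial marker CDH1 were well above background on the 6 arrays of slides A and D and on no other, the slides on which CCL2 was measured in control. Of the 6 tested, 2 were called lower with IL-1β with the replicate block, against 3.47% of all genes, and none higher. LRP2 fell by 2.44 ± 0.30 (SD over 4 slides) on the log2 scale (limma, adjusted p = 0.00350) and SLC34A1, a phosphate transporter, by 1.26 ± 0.47 (adjusted p = 0.0216). Both had a lower level on 4 of 4 slides. SLC34A1 was well above background on 4 arrays only, namely control of slides A and B, Empa of slide B and IL-1β of slide C. It passed the filter on dim probes only through the HK-2 control arrays. On no slide were its control and IL-1β arrays both well above background, so the size of its fall depends on values near the floor. AQP1 (-0.18 ± 0.56) and SLC22A8 (0.0086 ± 0.40), each higher on 2 of 4 slides, were among the other 4, which did not pass. Among the 6 leukocyte markers with a probe, PTPRC was well above background on all 12 arrays, CD14 and ITGAM on 11, CSF1R on 6 and CD3E on 2. None of the leukocyte, endothelial or fibroblast markers tested was called, with median log2 differences with IL-1β of -0.26, 0.11 and 0.04. Between 1 and 5 of the 6 leukocyte markers were well above background on an array, 3 in control and 3 with IL-1β on slide A and 1 and 3 on slide D. Their part in the chemokine levels was not tested.

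Across the 12 arrays, the genes whose log2 level ran most like that of CCL20 were CXCL8 (Pearson's r = 0.988), PTX3 (0.988) and CXCL2 (0.984), among 14598 genes well above background on as many arrays or on all. For CCL2 they were PPP2R5B (0.990), PPAP2B (0.987) and ADRA1B (0.985), for CCL28 they were MARCH3 (0.984), GLI3 (0.983) and STAT5A (0.9802), and for CX3CL1, among 12606 genes, they were CD55 (0.985), SYS1 (0.982) and RIMKLB (0.979). Among the members themselves, CCL5 ran with CCL3 at r = 0.932, with CX3CL1 at 0.909 and with CCL2 at 0.856. CCL20 and CCL28 ran together at r = 0.747, while CCL2 and CCL20 did so at 0.307 and CCL2 and CCL28 at -0.296. The 12 arrays share slides and treatments, and levels at the floor enter these values, so they are given as descriptions.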

How the data were processed

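Cy3-labelled cRNA of biological duplicates was measured on 12 one-color Agilent arrays. The authors deposited spot intensities from Feature Extraction, background-subtracted and, per the file headers, with marks for signals well above background, saturation and outliers. The deposited marks are flags of 0 or 1 of another unit than signals. The authors also deposited a table of log2 values described as quantile-normalized, used here as an alternative. The array annotation gives hg19 positions.

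Of 44495 spots, 1377 control spots and all outlier spots were dropped. Repeated spots were averaged as signals. Signals were divided by the 75th percentile of their array, floored at 1 signal unit and expressed as log2. Each treated array was set against the control array of its slide. For the test across genes, each gene was represented by its brightest probe, provided that some group had it well above background on both arrays (15717 genes), and limma 3.58.1 in R 4.3.3 was fitted with 6 groups (6 residual degrees of freedom). P-values were adjusted by Benjamini-Hochberg, with a threshold of 0.05. Same-numbered arrays of a line lie on 1 slide. Their deviations from their group means correlated with r between 0.627 and 0.895 over genes in every pair. These correlations cannot show that cultures were paired, since the slides of a label are unlike and their difference enters the deviations of every treatment. Control arrays correlated with r = 0.8796 between slides A and B and r = 0.875 between C and D, against 0.984 between A and D. The replicate numbers were nevertheless taken as pairs. The fit with the replicate number as a block (4 residual degrees of freedom) is given beside the fit without a block. Another fit had slide and treatment as its terms and left the line labels out (1 effect per treatment over the 4 slides). The procedure was tested on simulated data, which had no floor and no saturation. That test therefore does not cover genes at these limits. The exact sign-flip permutation test over the 4 slides was two-sided and cannot go below p = 0.125. The number of arrays limits the precision.

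The members and lists were chosen with earlier results of these data known. All members were named, and for each member tested in limma the 3 genes with the highest correlation over the arrays. From each list of other pathway genes, at most 3 genes called with the replicate block were named, by the size of their change. Alternatives were other scalings, normexp correction (offset 50), the table of the authors, a looser and a stricter filter on dim probes, a floor of 5 signal units, outlier spots kept, the scan day as a block or each day alone, each array or slide left out, and the methods' t-test, stated there for real-time PCR. Promoters were read from the RefSeq table of GRCh38.p14. Figures were drawn with matplotlib 3.10.9. A few marker genes and a receptor are not reported by name here.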

Additional observations from a re-analysis of the deposited data

How the results depend on the processing

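The counts depended on the replicate block. With it, the IL-1β comparison called 864 genes in the mean over the lines (8 without the block), 40 among the HK-2 arrays (0 without) and 41 among the RPTEC/TERT1 arrays (0 without), and the members past the threshold in the mean went from 0 to 2 (CCL2 and CCL20). With 1 effect per treatment over the 4 slides the counts were 1955 genes and 2 members, and for Empa 1 gene. The further alternatives for that fit, chosen after seeing the data, gave 1393 genes without the filter on dim probes, 1862 after quantile normalization, 1969 after normexp and quantile normalization and 1928 in the table of the authors, each with the 2 members CCL2 and CCL20, and for Empa 1 gene after quantile normalization. The replicate block without the filter gave 277 genes and 0 members. Without a block, the IL-1β count in the mean was 23 without the filter on dim probes, 18 with a floor of 5 signal units, 3 in the table of the authors, 3 under the filter on all 12 arrays, and 0 with the scan day as a block or with the arrays of either scan day alone. CCL20 was the 1 member past the threshold without a block after normexp and quantile normalization and in the table of the authors. In HK-2 the IL-1β count was 6 without the filter and 3 with the floor of 5, in RPTEC/TERT1 it was 5 and 1, and without the filter Empa gave 5 genes in the mean, 3 in HK-2 and 4 in RPTEC/TERT1. The methods' t-test called 0 genes in each line, with 657 and 417 genes for IL-1β and 375 and 210 for Empa at an unadjusted p below 0.05. With each array or slide left out, the genes past the threshold for IL-1β lay between 0 and 1140 in the mean, between 0 and 1 in HK-2 and at 0 in RPTEC/TERT1, and the members between 0 and 2 in the mean and at 0 in each line. For Empa the genes lay at 0 in the mean, between 0 and 1 in HK-2 and at 0 in RPTEC/TERT1, and the members at 0. The upper end for IL-1β in the mean comes from the fit with 1 effect per treatment, whose lowest count was 445, without slide D.

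Of 160 recomputed mean differences of the members, 153 moved by less than 1 SD over the slides, while 6 were classed as moved and 1 as reversed. Moves below this SD can be large, since it reached 5.46 on the log2 scale for CCL5 with IL-1β. In the table of the authors, CCL5 with IL-1β came to 1.24, from 4.73, and CCL20 to 6.69, from 10.60. Both of these moves were below 1 SD. With Empa, CCL2 came to -0.38 after normexp and quantile normalization and to -0.34 in the table of the authors, from -0.83, and CCL3 to 0.0030 in that table, from -1.05, with no measured array on either side. With IL-1β, CCL3 came to 0.95 in the table of the authors, from 4.05, and CCL7, measured on no array, to 0.07 after normexp and quantile normalization, to 0.06 in that table and to 0 with a floor of 5. The causes were not tested. Other probes of a member could not be tried, since each member has 1 probe.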
